A study of Mus musculus with 30 samples.

Results

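B2mKO tumours were compared with wild-type (WT) tumours in mice that received the control antibody IgG1. This comparison holds 10 of the 30 RNA-seq libraries of the series, 5 from B2mKO tumours and 5 from WT tumours, and the members were every library whose title gives one of these 2 genotypes together with IgG1. All groups are subcutaneous tumours of MC38, a mouse colon carcinoma line. The B2mKO group was grown from MC38 cells with a loss-of-function mutation in B2m, and the WT group from unmutated MC38 cells. In both groups 1000000 cells were injected into female C57BL/6 mice of 6 to 8 weeks, IgG1 was given intravenously at 100 µg on days 7, 10 and 13, and about 50 mg of tumour was taken on day 14. The other 20 libraries are B2mKO and WT tumours of mice treated with an antibody to the checkpoint receptor PD-1 (aPD1), and tumours of a line with a loss-of-function mutation in Jak1 (Jak1KO) under either antibody. The mice themselves carry an intact B2m gene and have their own immune cells. The labels do not say whether a line is 1 clone, nor that each library is a separate mouse, so the p-values measure the spread between libraries. All B2mKO libraries come from one line and all WT libraries from another, so the mutation and any other difference between the lines cannot be told apart.

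Beta-2-microglobulin, the product of B2m, is the light chain that major histocompatibility complex (MHC) class I molecules need to fold and to reach the cell surface. CD8 T cells recognise peptides held by MHC class I, so tumour cells that lack it are hidden from them. Natural killer (NK) cells carry inhibitory receptors for MHC class I and can kill cells that lack it, through perforin and granzymes, a response known as missing-self recognition. Interferons raise the transcription of MHC class I genes, of antiviral genes and of sensors of foreign RNA and DNA.

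B2m (ENSMUSG00000060802, GRCm38, chr2:122147686-122153083) was measured first because it checks the labels. Values are counts per 1000000 counts of the library (CPM), and where 5 values of a group are given they stand in the order of replicates 1 to 5. B2m was at 501, 510, 707, 621 and 747 CPM in B2mKO tumours, against 3240, 2383, 4176, 3684 and 1965 CPM in WT tumours. Every B2mKO library was below every WT library, and the mean fell to 617 ± 112 CPM in B2mKO tumours, against 3090 ± 911 CPM in WT tumours (SD, n = 5 each). The log2 fold change was -2.32 ± 0.19 (SE; edgeR adjusted p = 1.22e-09), and the exact two-sided permutation test gave p = 0.00794, the smallest that 5 against 5 libraries allow. The B2mKO level was 20.0% of the WT level. A bulk library also holds RNA of host cells with an intact B2m gene, and mutant transcripts may be counted, so the remaining RNA was not assigned to either source.

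Library totals ran from 18599575 to 25944701 counts in B2mKO tumours and from 17833233 to 23938816 counts in WT tumours. Of 15505 genes tested, 3194 (20.6%) passed at an edgeR adjusted p under 0.05, with 1407 (9.07%) higher and 1787 (11.5%) lower in B2mKO tumours. At least 2-fold changes made up 745 of these genes, and at least 4-fold changes 221. The 5 libraries of each group did not overlap in 1883 genes (12.1%), with B2mKO above WT in 899 (5.80%) and below it in 984 (6.35%). WT IgG1 replicate 3 stood apart, with a mean correlation of 0.954 with the other WT libraries, where the B2mKO libraries had 0.976 to 0.988 among themselves and the remaining WT libraries 0.971 to 0.978. Leaving out single libraries moved the number of called genes between 2221 (without B2mKO replicate 2) and 3825 (without WT replicate 4).

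The same lines were also measured in 10 further libraries under aPD1, which share no library with the IgG1 comparison. There 3061 genes passed (19.7% of those tested), 1481 higher (9.55%) and 1580 lower (10.2%) in B2mKO tumours. Of the 3194 genes called under IgG1, 90.7% had the same sign under aPD1, against 54.4% of the genes not called. Both passing and matching in direction were 1428 genes, which is 44.7% of the calls under IgG1 and 46.7% of the calls under aPD1, and 9 genes passed in opposite directions. The median of the genes called higher was 0.70 under IgG1 and 0.41 under aPD1 on the log2 scale, and that of the genes called lower was -0.52 under IgG1 and -0.28 under aPD1. The sizes were thus smaller under aPD1, in libraries that did not choose the genes. The choice of genes under IgG1 and the change of antibody cannot be told apart here. The direct test of the difference between both genotype effects called 15 genes (0.0967%), 13 more positive under IgG1 (0.0838%) and 2 more negative (0.0129%), and 2500 genes had an unadjusted p under 0.05. Set against the 5 Jak1KO libraries under IgG1, B2mKO tumours differed in 4362 genes (28.1%), 2217 higher (14.3%) and 2145 lower (13.8%); of the 3194 calls against WT tumours, 1797 passed in the same direction there, in a comparison that uses the same B2mKO libraries.

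**Figure D1:**
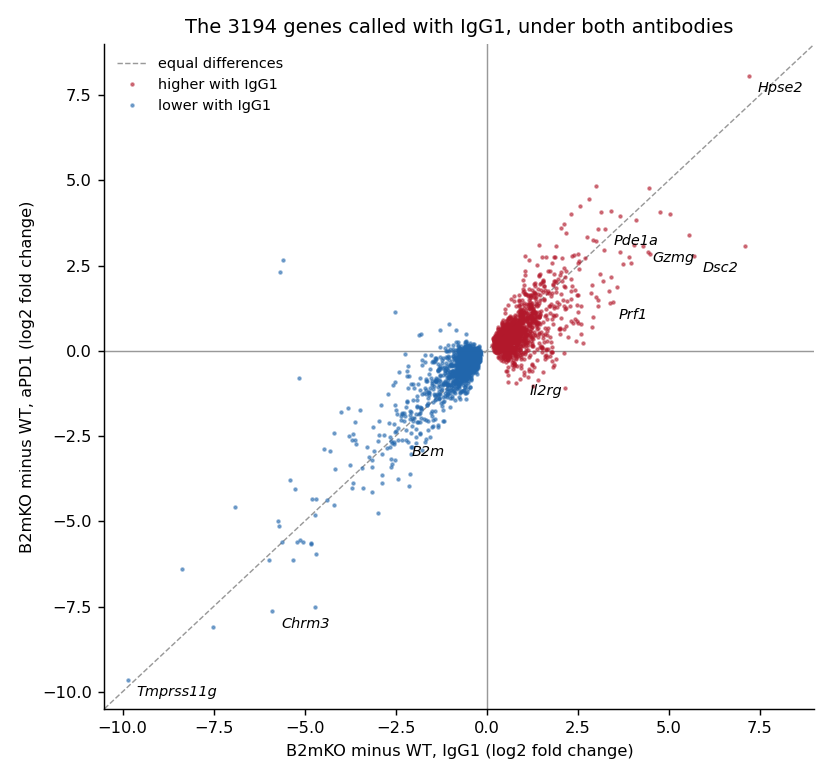
Log2 fold change of B2mKO against WT tumours under IgG1 (horizontal) and under aPD1 (vertical) for the 3194 genes called under IgG1, 1 point per gene. Of these points, 90.7% lie in the quadrants where both changes have the same sign.

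Genes of the type I interferon response were higher in B2mKO tumours. Of 30 tested members, 23 rose and 0 fell, with a median log2 fold change of 0.92, where 9.07% of all genes rose and 11.5% fell and the median of all genes was -0.00099. The members that rose include the 2'-5'-oligoadenylate synthetases Oas2, Oas3, Oasl1 and Oasl2, the antiviral GTPases Mx1 and Mx2, the transcription factors Irf7 and Stat2, and the cytosolic RNA sensors Ifih1, Ddx58 and Dhx58. The promoters of 4 genes are shown first because they hold the letters of the interferon-stimulated response element, a DNA element of interferon-induced genes. They are the 250 bases before the start of the gene in RefSeq (GRCm38.p6), 5′ to 3′ on the strand of the gene, with the match to GAAANNGAAA on either strand in capitals. B2m, which itself carries the element, lies at chr2:122147437-122147686 (plus strand), Oas3 at chr5:120777660-120777909 (minus), Trim30a at chr7:104465194-104465443 (minus) and Rsad2 at chr12:26456453-26456702 (minus).
B2m: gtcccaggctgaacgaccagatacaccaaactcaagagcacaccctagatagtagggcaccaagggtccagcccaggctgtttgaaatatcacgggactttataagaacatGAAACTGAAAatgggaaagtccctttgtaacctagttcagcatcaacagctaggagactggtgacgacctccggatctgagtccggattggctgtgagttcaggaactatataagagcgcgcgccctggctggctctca
Oas3: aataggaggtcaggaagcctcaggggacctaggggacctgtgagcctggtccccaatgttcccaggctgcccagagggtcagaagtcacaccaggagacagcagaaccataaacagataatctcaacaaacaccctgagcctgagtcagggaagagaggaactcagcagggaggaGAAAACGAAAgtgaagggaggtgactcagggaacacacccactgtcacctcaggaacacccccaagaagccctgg
Trim30a: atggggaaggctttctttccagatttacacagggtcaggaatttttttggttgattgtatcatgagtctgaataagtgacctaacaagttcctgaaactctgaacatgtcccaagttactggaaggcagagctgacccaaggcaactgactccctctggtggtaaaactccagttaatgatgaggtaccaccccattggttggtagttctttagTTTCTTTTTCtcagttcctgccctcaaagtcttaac
Rsad2: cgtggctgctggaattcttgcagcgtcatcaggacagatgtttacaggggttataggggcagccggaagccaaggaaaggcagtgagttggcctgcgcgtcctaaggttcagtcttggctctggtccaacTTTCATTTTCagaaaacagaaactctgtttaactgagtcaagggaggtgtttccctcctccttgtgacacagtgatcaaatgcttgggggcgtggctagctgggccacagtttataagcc
These letters stood in 381 of the 11025 tested genes with a promoter in the RefSeq table (3.46%). They stood in 11 of the 21 list members with a promoter there, 8 of 16 that rose and 3 of 5 that did not pass. A match describes these letters only and is not a measured binding site.

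Ifih1, which senses long double-stranded RNA, was at 171, 144, 135, 165 and 175 CPM in B2mKO tumours, against 69.6, 76.0, 91.9, 110 and 55.8 CPM in WT tumours. Its libraries did not overlap between the groups, and its rise of 0.97 ± 0.14 (edgeR adjusted p = 1.08e-05) had the smallest p of the list. Oasl1, a member of the oligoadenylate synthetase family, was at 102, 92.0, 68.6, 97.8 and 90.7 CPM in B2mKO tumours, against 36.3, 26.3, 42.8, 59.5 and 27.3 CPM in WT tumours (1.23 ± 0.20, adjusted p = 9.99e-05). Irf7, the transcription factor that amplifies type I interferon production, was at 307, 277, 230, 306 and 319 CPM in B2mKO tumours, against 96.3, 68.0, 185, 185 and 74.4 CPM in WT tumours (1.24 ± 0.25, adjusted p = 0.000834). In all of these genes B2mKO replicate 3 was the lowest B2mKO library, and WT replicates 3 and 4 were the highest WT libraries. Oas3, whose promoter is printed above, was at 165, 153, 88.8, 166 and 161 CPM in B2mKO tumours, against 42.0, 44.2, 28.6, 102 and 31.1 CPM in WT tumours, and the groups overlapped through WT replicate 4 (1.57 ± 0.30, adjusted p = 0.000456). Trim30a, an antiviral E3 ligase of the TRIM family, rose by 1.00 ± 0.20 (adjusted p = 0.000834), and Rsad2, which encodes the antiviral enzyme viperin, by 1.12 ± 0.26 (adjusted p = 0.00307). The ubiquitin-like modifier Isg15 did not pass, at 205 ± 35.7 CPM in B2mKO tumours and 131 ± 58.4 CPM in WT tumours (0.65 ± 0.25, adjusted p = 0.0623), and its remover Usp18 rose by 1.15 ± 0.28 (adjusted p = 0.00484).

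Under aPD1, 11 of the 30 members rose and 0 fell, with a median of 0.57. Ifih1 (0.71), Oasl1 (0.91), Irf7 (0.93) and Usp18 (1.38) were among those that passed in both antibody arms, and Stat2 was at -0.18 under aPD1 (adjusted p = 0.561) against 0.70 under IgG1. Set against Jak1KO tumours under IgG1, which share these B2mKO libraries, B2mKO tumours had a list median 2.56 higher, and Ifih1 was 2.37 and Rsad2 3.82 higher. Jak1 is a kinase of every interferon receptor. The gene Jak1 itself was at 303 ± 19.1 CPM in B2mKO tumours and 232 ± 28.7 CPM in WT tumours (0.38 ± 0.10, edgeR adjusted p = 0.00739), a call that the fit of these 2 groups alone does not give (0.38, adjusted p = 0.0519).

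Sensors of RNA and DNA were also higher under IgG1, a list that shares genes such as Ifih1 with the type I interferon list. Of its 29 tested members, 13 were higher and 0 lower (median 0.41), 44.8% called against 20.6% of all genes. Besides the RNA sensors above they include Tlr3, the endosomal receptor for double-stranded RNA (57.2 ± 4.54 CPM in B2mKO tumours and 40.4 ± 5.88 CPM in WT tumours, 0.50 ± 0.12, adjusted p = 0.0038), and the sensor of Z-form nucleic acid Zbp1 (1.13 ± 0.21, adjusted p = 0.000479). A cluster of interferon-inducible HIN-200 genes on chromosome 1 rose together. Ifi203 was at 103, 102, 79.3, 89.8 and 111 CPM in B2mKO tumours, against 30.3, 47.1, 44.5, 70.6 and 33.3 CPM in WT tumours (1.11 ± 0.19, adjusted p = 0.000126), without overlap. Its neighbours Ifi205 (1.24), Ifi207 (0.94), Ifi208 (1.26), Ifi211 (0.87) and Mndal (0.86) also rose; these genes are similar in sequence, so reads could be split among them. Under aPD1 the sensor list had 2 members higher and 2 lower (median 0.095). Ifi203 was there at 0.47 (edgeR adjusted p = 0.0742) and Ifi205 at 0.23 (adjusted p = 0.592).

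Among the 25 tested genes of MHC class I heavy chains and assembly, 5 were higher and 1, B2m itself, was lower (24.0% called, against 20.6% of all genes). Of the higher genes, 3 passed in every run that left out 1 library. Erap1, the aminopeptidase that trims peptides in the endoplasmic reticulum, was at 219, 207, 217, 226 and 229 CPM in B2mKO tumours, against 154, 176, 167, 175 and 137 CPM in WT tumours, without overlap (0.44 ± 0.08, adjusted p = 0.000348). Tapbp, which encodes the loading chaperone tapasin, was at 869, 902, 685, 864 and 717 CPM in B2mKO tumours, against 498, 495, 433, 714 and 417 CPM in WT tumours (0.66 ± 0.13, adjusted p = 0.000536). Tap2, a subunit of the peptide transporter, was at 145, 143, 130, 157 and 138 CPM in B2mKO tumours, against 97.1, 110, 89.2, 138 and 88.7 CPM in WT tumours (0.45 ± 0.11, adjusted p = 0.00345). The classical heavy chains did not pass: H2-K1 was at 1931 ± 248 CPM in B2mKO tumours and 1656 ± 514 CPM in WT tumours (0.22 ± 0.18, adjusted p = 0.394), and H2-D1 at 1875 ± 264 CPM in B2mKO tumours and 1743 ± 645 CPM in WT tumours (0.11 ± 0.20, adjusted p = 0.736). Heavy chain genes are similar in sequence, and their counts are uncertain for that reason. The whole list had 0 members higher and 7 lower under aPD1, B2m among them, with a median of -0.14. Tap2 fell there by 0.30 (edgeR adjusted p = 0.0417), and the difference between both genotype effects passed for Tap2 (0.75, adjusted p = 0.0345).

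The interferon gamma response moved less under IgG1. Of 33 tested members 4 rose and 1 fell (median 0.16), a share of 15.2% called against 20.6% of all genes. The guanylate-binding protein genes Gbp3 (337 ± 48.1 CPM in B2mKO tumours and 176 ± 61.1 CPM in WT tumours, 0.94 ± 0.25, adjusted p = 0.00943) and Gbp9 (0.71 ± 0.17, adjusted p = 0.00376) kept their call without any 1 library. Without B2mKO replicate 1 or 2 the count was 2, and without B2mKO replicate 4, WT replicate 1 or WT replicate 5 it was 3. Under aPD1 the same list had 2 members higher and 28 lower (median -1.24). Ifng itself did not pass under IgG1 (-1.74 ± 1.12, adjusted p = 0.279). The MHC class II list had 0 of 10 members called by edgeR, 3 by DESeq2 and 4 at an unadjusted edgeR p under 0.05, all lower, and its median was -1.02. H2-Aa was at 13.6, 15.7, 76.7, 25.1 and 74.5 CPM in B2mKO tumours, against 56.5, 135, 372, 194 and 69.8 CPM in WT tumours (-2.01 ± 0.80, adjusted p = 0.0751), and 2 members passed without B2mKO replicate 5 or without WT replicate 1.

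Genes of cytotoxic granules had the highest median change of the 61 lists with tested members. Of 19 tested cytotoxic effector genes 13 rose and 0 fell, with a median log2 fold change of 1.76. In bulk tumour RNA, more cells of a type and more RNA per cell cannot be told apart. Prf1, the pore-forming protein perforin, was at 80.9, 135, 32.3, 40.2 and 18.4 CPM in B2mKO tumours, against 6.71, 3.71, 9.22, 5.06 and 4.79 CPM in WT tumours. Gzmc was at 173, 269, 128, 92.4 and 58.3 CPM in B2mKO tumours, against 24.8, 4.70, 28.6, 13.1 and 12.1 CPM in WT tumours. Gzmb was at 56.2, 93.2, 27.2, 30.2 and 28.6 CPM in B2mKO tumours, against 7.42, 3.60, 19.3, 8.00 and 4.57 CPM in WT tumours. In all of these genes the lowest B2mKO library lay above the highest WT library, and B2mKO replicates 1 and 2 held the highest values for Prf1, Gzmc and Gzmb. The rises were 3.38 ± 0.59 for Prf1 (edgeR adjusted p = 0.000192), 3.11 ± 0.52 for Gzmc (adjusted p = 0.000106) and 2.46 ± 0.62 for Gzmb (adjusted p = 0.00544). The granzyme genes Gzmd (4.03), Gzme (3.91), Gzmf (4.42) and Gzmg (4.30), all granule serine proteases on chromosome 14, rose with them, and reads could be shared between these close copies. The death ligand gene Tnfsf10 (1.08 ± 0.29, adjusted p = 0.00899), the granzyme-processing inhibitor gene Cst7 (1.66 ± 0.41, adjusted p = 0.00528) and the transcription factor gene Tbx21 (1.75 ± 0.52, adjusted p = 0.0168) also rose, while Gzma, a granzyme made by resting NK cells, did not pass (0.61).

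Against Jak1KO tumours under IgG1, Prf1 was 3.09 higher (adjusted p = 0.000174) and Gzmc 2.85 higher (adjusted p = 0.000103) in B2mKO tumours, so these genes were above both other tumour types. The cytotoxic list had 5 of 19 members higher and 1 lower under aPD1 (median 0.29). There Gzmc rose by 2.24 (edgeR adjusted p = 0.00189), Prf1 was at 1.40 (adjusted p = 0.0689) and Gzmb at 0.29 (adjusted p = 0.777). None of these 3 genes passed in the test of the difference between antibody arms.

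NK cell genes rose together with the granule genes. Of 29 tested members of the NK list 13 rose and 1 fell (median 1.13). In the aPD1 arm 5 members rose and 3 fell (median 0.92). Ncr1, which encodes the activating receptor NKp46 and marks NK cells, was at 2.18, 3.20, 2.81, 1.15 and 1.23 CPM in B2mKO tumours, against 0.380, 0.387, 0.667, 0.413 and 0.264 CPM in WT tumours. All B2mKO libraries were above all WT libraries at these low levels (2.32 ± 0.49, edgeR adjusted p = 0.00113), and Ncr1 rose under aPD1 too (1.52, adjusted p = 0.0149). Klrg1, an inhibitory receptor of mature NK and T cells, averaged 3.62 ± 2.06 CPM in B2mKO tumours and 0.485 ± 0.417 CPM in WT tumours (2.90 ± 0.60, adjusted p = 0.000986). The Ly49 receptor genes Klra7 (2.86 ± 0.56, adjusted p = 0.000587), Klra8 (2.51) and Klra9 (3.37) rose, members of a family whose close copies share reads. Il2rb, a shared receptor chain for interleukins 2 and 15, was at 34.8, 59.6, 27.2, 23.7 and 21.2 CPM in B2mKO tumours, against 6.37, 9.96, 5.72, 7.22 and 6.02 CPM in WT tumours (2.24 ± 0.43, adjusted p = 0.000485), without overlap. Txk, a Tec family kinase, rose by 2.42 ± 0.40 (adjusted p = 0.000101). Set against Jak1KO tumours, Klrg1 was 2.74 higher (adjusted p = 0.000718) and Txk 1.58 higher (adjusted p = 0.00222), while Ncr1 (0.74, adjusted p = 0.223) and Il2rb (0.83, adjusted p = 0.13) did not pass, so a higher level of the last pair than in both other tumour types was not shown.

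The one NK list member that fell, Klra4 (60.3 ± 8.00 CPM in B2mKO tumours and 96.2 ± 27.7 CPM in WT tumours, -0.67 ± 0.20, adjusted p = 0.0183), lost its call without B2mKO replicate 2 or WT replicate 3. Of 9 tested ligands of NK receptors, 0 rose and 2 fell (22.2% called, against 20.6% of all genes). Ulbp1, a ligand of NKG2D, fell by 0.36 ± 0.12 (edgeR adjusted p = 0.027) and Nectin2, a ligand of DNAM-1, by 0.33 ± 0.12 (adjusted p = 0.0468). Without B2mKO replicate 1, without B2mKO replicate 4 or without WT replicate 5 neither passed, and leaving out B2mKO replicate 2, 3 or 5 or WT replicate 1, 2 or 4 left 1 of them.

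**Figure D2:**
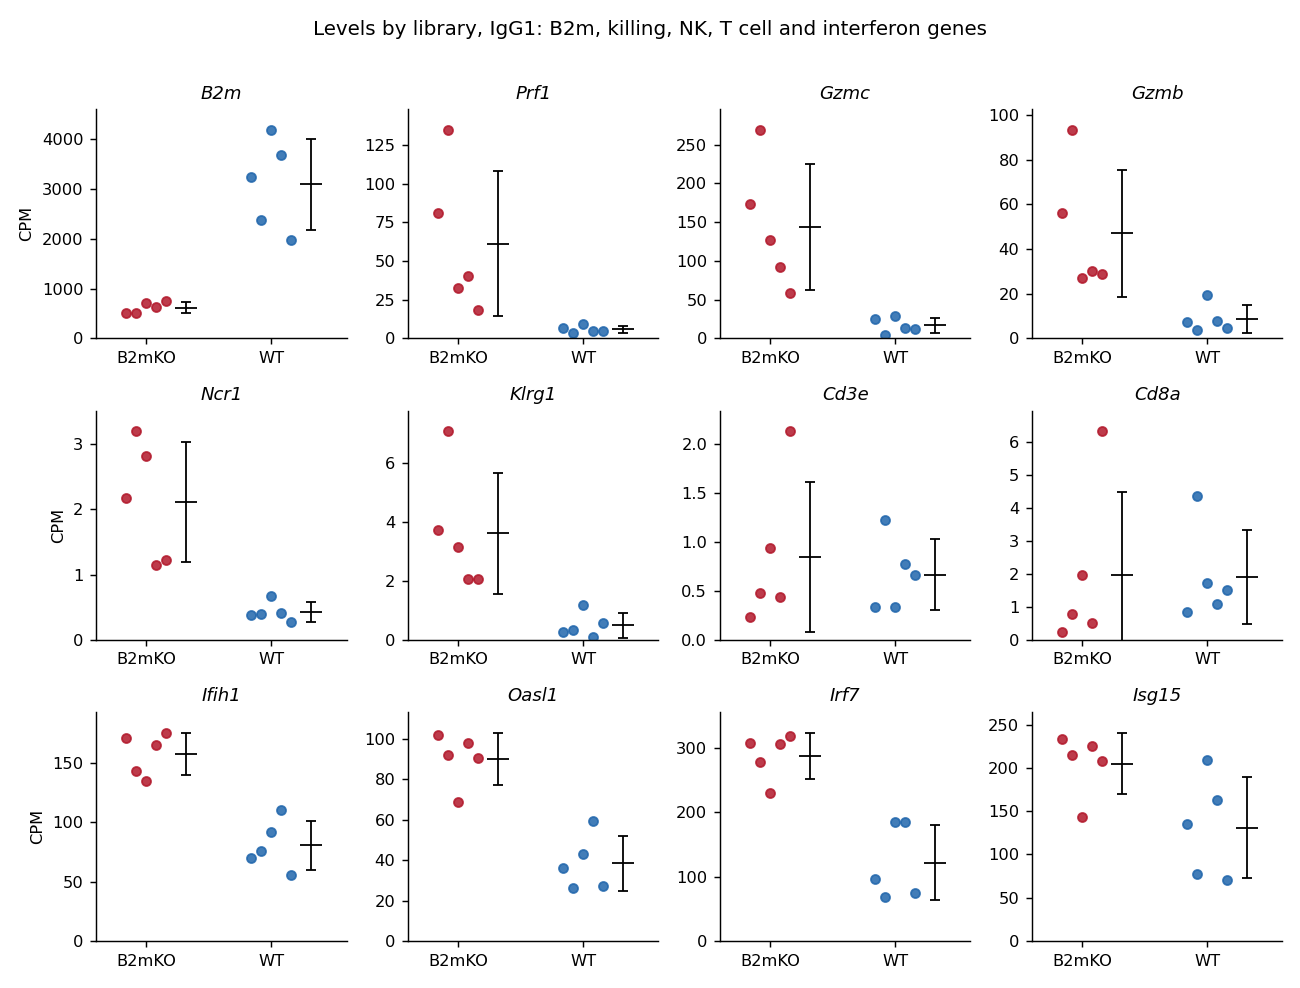
CPM of 12 genes in each library, with B2mKO tumours on the left and WT tumours on the right of each panel, points for libraries and bars for the mean ± SD (n = 5 each). B2m lies between 501 and 747 CPM in B2mKO tumours and between 1965 and 4176 CPM in WT tumours; Prf1, Gzmc, Gzmb and Ncr1 do not overlap between the groups, and Cd3e and Cd8a do.

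T cell genes were mixed. Of 23 tested members 7 rose and 0 fell (median 0.92), a share of 30.4% called against 20.6% of all genes. Without B2mKO replicate 2 the count was 3, and under aPD1 1 member of the list rose and 1 fell (median -0.26). The defining markers did not pass under IgG1. Cd3e, a chain of the T cell receptor complex, was at 0.229, 0.475, 0.938, 0.437 and 2.12 CPM in B2mKO tumours, against 0.337, 1.22, 0.333, 0.774 and 0.659 CPM in WT tumours (0.35 ± 0.66, edgeR adjusted p = 0.738). Cd8a, the co-receptor for MHC class I, was at 0.229, 0.777, 1.97, 0.517 and 6.33 CPM in B2mKO tumours, against 0.844, 4.37, 1.72, 1.08 and 1.49 CPM in WT tumours (0.06 ± 0.82, adjusted p = 0.967). Both groups overlapped throughout, and the highest library for Cd8a, B2mKO replicate 5, was the lowest for Prf1 among the B2mKO libraries. Cd4, the co-receptor for MHC class II, was at 1.22 ± 0.607 CPM in B2mKO tumours and 0.612 ± 0.195 CPM in WT tumours (0.98 ± 0.36, adjusted p = 0.0548). Of the members that rose, Trbc1, a T cell receptor constant gene (2.16 ± 0.552 CPM in B2mKO tumours and 0.629 ± 0.402 CPM in WT tumours, 1.80 ± 0.50, adjusted p = 0.0113), Tcf7 (0.78 ± 0.15, adjusted p = 0.000404) and Thy1 (1.22 ± 0.30, adjusted p = 0.00465) kept the call without any 1 library; Thy1 is also made by fibroblasts, and Tcf7 is a Wnt pathway factor. The summed level of the T cell list was 111 to 144 CPM in B2mKO tumours and 66.1 to 83.0 CPM in WT tumours, and that of the NK list 402 to 522 CPM in B2mKO tumours and 233 to 653 CPM in WT tumours. Such sums are carried by the most abundant members. At their low levels Cd3e, Cd8a and Cd4 add little to the T cell sum, and Ncr1 adds little to the NK sum. No tested member of either list was at 0 in a whole group, and the part of T cells in the cytotoxic rise was not tested.

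Lrrc32, which encodes the protein GARP that holds latent TGF-beta on the cell surface, was at 31.1, 44.9, 10.6, 35.3 and 26.2 CPM in B2mKO tumours, against 8.23, 7.41, 2.00, 6.55 and 5.71 CPM in WT tumours (2.30 ± 0.36, adjusted p = 5.2e-05). It belongs to the regulatory T cell list, of which 3 of 9 members rose (33.3% called, against 20.6% of all genes). Under aPD1 the list had 1 member higher and 1 lower (median -0.19). Without WT IgG1 replicate 5 only 1 member rose under IgG1. Foxp3, the factor that defines regulatory T cells, was at 0.730 ± 0.468 CPM in B2mKO tumours and 0.328 ± 0.146 CPM in WT tumours (1.16 ± 0.41, adjusted p = 0.043), and it lost the call without B2mKO replicate 3, 4 or 5 or WT replicate 1, 3, 4 or 5.

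Myeloid and stromal cell lists outside the fibroblasts changed in few members. Of the macrophage, dendritic cell, neutrophil and endothelial genes, 10.0%, 5.88%, 9.09% and 5.26% were called, all of them higher. Of all genes 20.6% were called and 9.07% were higher. Of 30 macrophage and monocyte genes 3 rose and 0 fell, and without B2mKO replicate 5, WT replicate 1 or WT replicate 5 the count was 1. Siglec1, the sialic acid receptor CD169 of macrophages and a gene that type I interferon induces, was at 116, 124, 172, 187 and 225 CPM in B2mKO tumours, against 27.9, 68.1, 19.5, 122 and 73.9 CPM in WT tumours (1.41 ± 0.40, adjusted p = 0.0121), and it passed whichever library was left out. The macrophage markers Adgre1 (0.46, adjusted p = 0.154), Csf1r (0.29, adjusted p = 0.413) and C1qa (0.06, adjusted p = 0.897) did not pass. Their list summed to 3914 to 6270 CPM in B2mKO tumours and 2061 to 8639 CPM in WT tumours, with WT replicate 3 highest. Among 17 dendritic cell genes 1 passed, the transcription factor gene Zbtb46 (0.50), and 2 without B2mKO replicate 1, WT replicate 3 or WT replicate 4. The dendritic cell markers Xcr1 (-0.63, edgeR adjusted p = 0.567), Clec9a (-0.82, adjusted p = 0.168) and Flt3 (0.22, adjusted p = 0.723) did not pass. Among 11 neutrophil genes 1 passed, the gelatinase gene Mmp9 (1.08), and 2 without B2mKO replicate 3 or 5 or WT replicate 1, 3 or 4. Among 19 endothelial genes 1 passed, the TGF-beta co-receptor gene Eng (0.76), and 2 without B2mKO replicate 2. Cx3cl1, the membrane-bound chemokine that attracts NK cells, cytotoxic T cells and monocytes, rose to 4.79 ± 2.08 CPM in B2mKO tumours, against 1.52 ± 0.682 CPM in WT tumours (1.66 ± 0.35, adjusted p = 0.00118).

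Fibroblast and matrix genes were higher in B2mKO tumours, with 15 of 26 tested members up, 1 down and a median of 0.94. Fap, the fibroblast activation protein, was at 21.0, 26.6, 19.6, 13.9 and 10.1 CPM in B2mKO tumours, against 5.27, 2.77, 5.33, 3.51 and 3.12 CPM in WT tumours. Lum, the collagen-binding proteoglycan lumican, was at 137, 239, 93.3, 97.3 and 58.8 CPM in B2mKO tumours, against 53.5, 13.9, 30.6, 40.5 and 13.9 CPM in WT tumours. Mfap4, a glycoprotein of elastic fibres, was at 178, 274, 149, 181 and 87.2 CPM in B2mKO tumours, against 21.3, 19.1, 21.3, 31.9 and 14.2 CPM in WT tumours. No WT library reached the lowest B2mKO library in these genes, and B2mKO replicate 2 was the highest and replicate 5 the lowest B2mKO library in each. The rises were 2.19 ± 0.33 for Fap (edgeR adjusted p = 3.07e-05), 2.03 ± 0.40 for Lum (adjusted p = 0.000584) and 3.01 ± 0.36 for Mfap4 (adjusted p = 7.49e-07). Pdgfra, a growth factor receptor that marks fibroblasts, was at 776 ± 203 CPM in B2mKO tumours and 381 ± 110 CPM in WT tumours (1.03 ± 0.21, adjusted p = 0.00113). The small proteoglycan Dcn, another fibroblast marker, did not pass (1315 ± 518 CPM in B2mKO tumours and 1158 ± 570 CPM in WT tumours, 0.18 ± 0.29, adjusted p = 0.689). Fbln2, a fibulin, was the member that fell (-1.23 ± 0.43, adjusted p = 0.0438), and its call was lost without any 1 of B2mKO replicates 1, 3, 4 and 5 or WT replicates 1, 2 and 5.

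Under aPD1, 16 members of this list rose, with a median of 1.06; Fap was 3.45, Lum 3.59 and Mfap4 4.84 higher there. Against Jak1KO tumours Fap was 2.45 higher (adjusted p = 2.26e-06), while Lum (0.96, adjusted p = 0.0605) and Mfap4 (0.35, adjusted p = 0.477) did not pass, since Jak1KO tumours were at 64.2 CPM for Lum and 137 CPM for Mfap4. MC38 cells themselves may express matrix genes, and the part of host fibroblasts was not tested. Skeletal muscle genes, which mark adjoining host tissue, summed to 17.6 to 330 CPM in B2mKO tumours and 33.9 to 774 CPM in WT tumours, with B2mKO replicate 5 and WT replicate 2 highest in their groups, and the groups overlapped.

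Collagen genes rose in 10 of 29 tested members and fell in 0 (median 0.60). Col3a1, the fibrillar collagen of soft tissue, was at 21581, 25930, 12223, 16231 and 11267 CPM in B2mKO tumours, against 8986, 7054, 4563, 11004 and 5618 CPM in WT tumours (1.23 ± 0.25, adjusted p = 0.000861). The lowest B2mKO library was just above the highest WT library. Col5a2, a partner in fibril assembly, rose by 1.46 ± 0.27 (adjusted p = 0.000322), Col16a1, a fibril-associated collagen, by 1.49 ± 0.28 (adjusted p = 0.000357) and Col8a1, a short-chain collagen, by 1.13 ± 0.11 (adjusted p = 3.64e-08). Fn1, fibronectin, reached 33853, 35278, 17337, 30214 and 17510 CPM in B2mKO tumours, against 11104, 11468, 2654, 17390 and 8847 CPM in WT tumours (1.38 ± 0.37, adjusted p = 0.00865), where WT replicate 4 overlapped with B2mKO replicate 3.

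Ligands and targets of TGF-beta, a growth factor that induces matrix genes, were higher too: 10 of 18 tested members rose and 0 fell (median 0.45). Ltbp1, the protein that anchors latent TGF-beta in matrix, was at 470, 550, 333, 404 and 349 CPM in B2mKO tumours, against 128, 97.2, 72.1, 149 and 101 CPM in WT tumours (1.94 ± 0.19, adjusted p = 1.54e-08). Tgfb3, a ligand, was at 451, 442, 481, 500 and 279 CPM in B2mKO tumours, against 141, 180, 193, 205 and 163 CPM in WT tumours (1.29 ± 0.22, adjusted p = 0.000152). Neither gene overlapped between groups. Among the targets and feedback genes, Pmepa1 (0.80), Skil (0.51), Smad7 (0.40) and the activin subunit gene Inhba (0.66) rose, as did Bmp1 (0.79), whose protease product processes procollagens. In the aPD1 arm Ltbp1 (1.30), Tgfb3 (1.70) and Bmp1 (0.93) rose again.

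Of 21 tested genes in the matrix metalloproteinase list, which includes the inhibitors, 5 rose and 1 fell (28.6% called, against 20.6% of all genes). Of 28 ADAM and ADAMTS proteases 4 rose and 3 fell (25.0%), and of 34 surface and cytosolic peptidases, the list that holds Capn6, 2 rose and 3 fell (14.7%). Mmp9, a gelatinase, was at 399 ± 95.2 CPM in B2mKO tumours and 189 ± 55.5 CPM in WT tumours (1.08 ± 0.19, adjusted p = 0.000181). The inhibitor Timp1 was at 86.8 ± 10.3 CPM in B2mKO tumours and 52.7 ± 3.73 CPM in WT tumours (0.72 ± 0.14, adjusted p = 0.000681), and the membrane-anchored inhibitor Reck rose by 0.73 ± 0.14 (adjusted p = 0.000517). Adamts8, an ADAMTS protease, fell to 1.34 ± 0.496 CPM in B2mKO tumours, against 7.92 ± 2.26 CPM in WT tumours (-2.55 ± 0.24, adjusted p = 1.17e-08). Capn6, a calpain without protease activity, was at 52.9, 53.2, 51.9, 44.7 and 45.5 CPM in B2mKO tumours, against 16.4, 14.2, 10.0, 12.7 and 14.3 CPM in WT tumours (1.87 ± 0.14, adjusted p = 2.81e-10). Of these, Mmp9 (1.17), Timp1 (0.83), Reck (0.82), Adamts8 (-2.74) and Capn6 (2.06) passed under aPD1 as well.

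**Figure D3:**
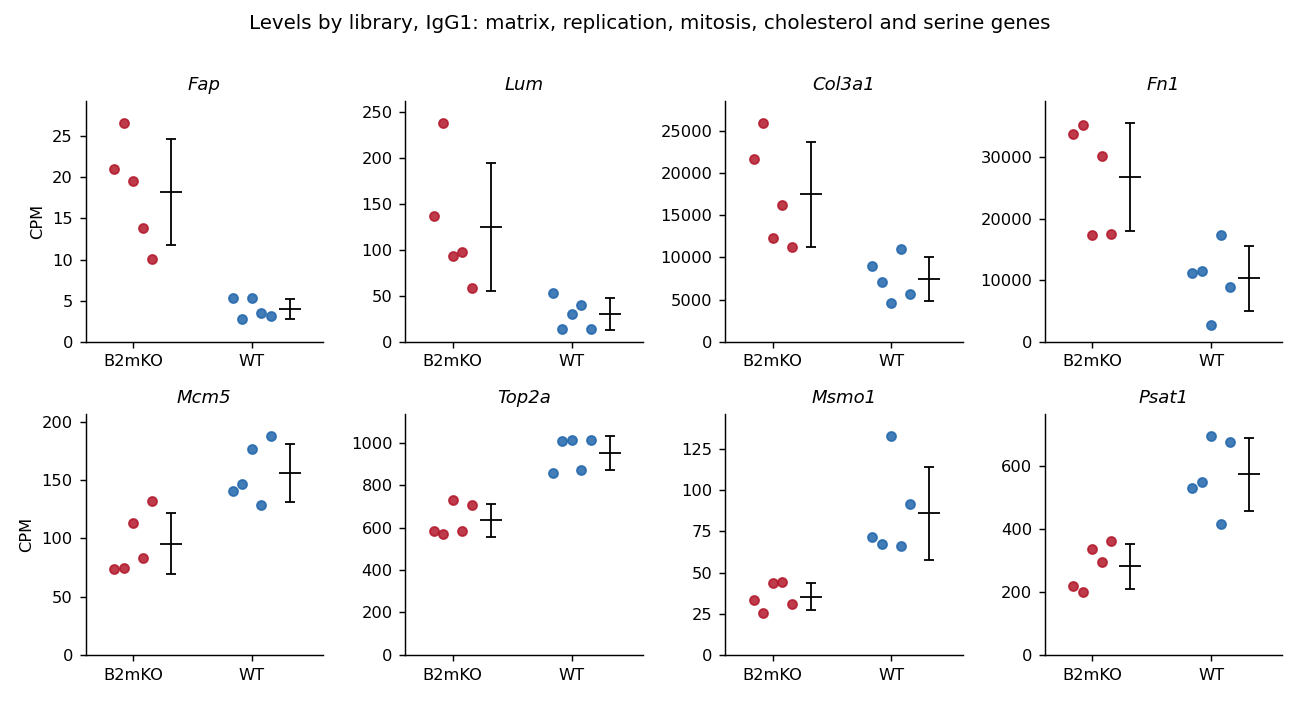
CPM of 4 matrix genes (Fap, Lum, Col3a1, Fn1) and 4 genes of growth and biosynthesis (Mcm5, Top2a, Msmo1, Psat1) in each library, B2mKO tumours left and WT tumours right, bars for the mean ± SD (n = 5 each). The matrix genes are higher and the growth genes lower in B2mKO tumours; only Fn1 and Mcm5 overlap between the groups.

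Genes of DNA replication were lower in B2mKO tumours. Of 30 tested members 0 rose and 21 fell, with a median log2 fold change of -0.54, where 11.5% of all genes fell. The promoters of Mcm7 (chr5:138171884-138172133, minus strand) and Cdc6 (chr11:98907901-98908150, plus strand) are shown because both genes fell and both hold the letters of an E2F site, the element through which the cell cycle controls replication genes. They are given as above, with TTTCCCGC on either strand in capitals.
Mcm7: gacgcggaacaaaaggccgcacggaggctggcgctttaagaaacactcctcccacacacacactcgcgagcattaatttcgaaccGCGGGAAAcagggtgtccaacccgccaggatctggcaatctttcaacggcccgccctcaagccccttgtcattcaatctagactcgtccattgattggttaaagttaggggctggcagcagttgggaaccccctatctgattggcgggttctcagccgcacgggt
Cdc6: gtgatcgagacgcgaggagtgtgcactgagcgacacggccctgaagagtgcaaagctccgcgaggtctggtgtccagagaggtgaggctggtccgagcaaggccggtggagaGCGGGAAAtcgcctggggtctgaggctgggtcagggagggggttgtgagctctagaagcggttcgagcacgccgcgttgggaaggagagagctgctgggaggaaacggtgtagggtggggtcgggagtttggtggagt
These letters stood in 211 of 11025 promoters (1.91%) and in 3 of 22 list members with a promoter in the table, Cdc6, Gins3 and Mcm7. Mcm7, a subunit of the replicative helicase, was at 107, 103, 144, 111 and 145 CPM in B2mKO tumours, against 165, 162, 229, 149 and 207 CPM in WT tumours (-0.58 ± 0.13, edgeR adjusted p = 0.00179). Cdc6, which loads that helicase onto origins, was at 26.7, 29.0, 39.4, 27.1 and 41.5 CPM in B2mKO tumours, against 45.7, 52.6, 44.5, 47.9 and 56.8 CPM in WT tumours (-0.60 ± 0.13, adjusted p = 0.0022). Both were lower in every B2mKO library than in any WT library. Mcm5 was at 74.0, 74.9, 113, 83.1 and 132 CPM in B2mKO tumours, against 141, 146, 177, 129 and 188 CPM in WT tumours (-0.71 ± 0.14, adjusted p = 0.000713). Among the B2mKO libraries, replicates 3 and 5 were the highest for Mcm5, Mcm7 and Cdc6, and the same libraries were the lowest for Prf1. The sliding clamp gene Pcna (-0.58), the licensing factor gene Cdt1 (-0.70), the origin gene Orc6 (-0.76) and the ribonucleotide reductase gene Rrm2 (-0.65) also fell.

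Mitosis genes followed, with 0 higher and 13 lower of 25 (median -0.33). Top2a, topoisomerase II alpha, was at 585, 568, 731, 584 and 708 CPM in B2mKO tumours, against 858, 1007, 1013, 872 and 1012 CPM in WT tumours (-0.58 ± 0.09, adjusted p = 7.41e-05). Bub1, a spindle checkpoint kinase, was at 114 ± 10.9 CPM in B2mKO tumours and 183 ± 26.1 CPM in WT tumours (-0.68 ± 0.10, adjusted p = 1.37e-05). Both also fell under aPD1, Top2a by 0.66 and Bub1 by 0.48. In that arm 10 of the replication genes and 6 of the mitosis genes fell and 0 rose. Myc, a transcription factor that drives growth, was at 93.0, 90.8, 91.9, 109 and 93.2 CPM in B2mKO tumours, against 179, 141, 110, 143 and 197 CPM in WT tumours (-0.69 ± 0.15, adjusted p = 0.0012), and it fell by 0.64 under aPD1. Bulk RNA gives no growth rate, and a lower share of tumour cells and a lower level per tumour cell cannot be told apart.

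Genes of sterol and fatty acid synthesis were lower. In the cholesterol list 0 of 22 rose and 14 fell (median -0.62), and in the fatty acid list 0 of 18 rose and 8 fell (median -0.45). Msmo1, a sterol demethylating oxidase, was at 33.1, 25.4, 43.7, 44.1 and 30.9 CPM in B2mKO tumours, against 71.3, 67.4, 133, 66.4 and 91.4 CPM in WT tumours (-1.28 ± 0.21, edgeR adjusted p = 8.86e-05). Idi1, which isomerises the building block of sterols, was at 4.47, 3.89, 9.05, 7.51 and 6.99 CPM in B2mKO tumours, against 13.0, 15.9, 22.7, 9.96 and 15.8 CPM in WT tumours (-1.27 ± 0.25, adjusted p = 0.000597). Insig1, a feedback regulator of the pathway, fell by 1.04 ± 0.23 (adjusted p = 0.00183), and Scd1, the desaturase that makes oleic acid, by 0.85 ± 0.14 (adjusted p = 0.000141). The groups did not overlap in any of these genes. Under aPD1 Scd1 fell by 0.86 (adjusted p = 0.0001), while Msmo1 (-0.51, adjusted p = 0.0817), Idi1 (-0.17, adjusted p = 0.688) and Insig1 (-0.43, adjusted p = 0.194) did not pass, and 2 of the cholesterol genes fell there and 1 rose. Of 10 adipocyte genes 3 fell, Scd1, the fatty acid binding protein gene Fabp4 and the fatty acid receptor gene Cd36 (5 without WT replicate 4), with a summed level of 195 to 266 CPM in B2mKO tumours and 364 to 489 CPM in WT tumours. Cd36 lost its call when any 1 library other than B2mKO replicate 2, WT replicate 4 or WT replicate 5 was left out. The defining marker Adipoq was at 0.107 ± 0.0912 CPM in B2mKO tumours and 0.828 ± 1.01 CPM in WT tumours (adjusted p = 0.0722). Their part in the lipid genes was not tested.

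The integrated stress response, a programme for amino acid shortage, had 9 of 20 members lower and 0 higher (median -0.34). Its transcription factor Atf4 was at 366, 345, 345, 404 and 304 CPM in B2mKO tumours, against 553, 482, 664, 475 and 579 CPM in WT tumours (-0.64 ± 0.13, adjusted p = 0.000746). Psat1, an enzyme of serine synthesis, was at 219, 198, 335, 295 and 362 CPM in B2mKO tumours, against 528, 549, 695, 414 and 675 CPM in WT tumours (-1.02 ± 0.19, adjusted p = 0.000275). Vldlr, a lipoprotein receptor, was at 30.4, 42.7, 21.2, 41.3 and 10.0 CPM in B2mKO tumours, against 145, 105, 93.0, 122 and 114 CPM in WT tumours (-1.99 ± 0.25, adjusted p = 2.9e-06). All of these groups were apart, and Atf4 (-0.51), Psat1 (-0.67) and Vldlr (-1.97) fell under aPD1 too.

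Hypoxia and glycolysis genes fell in 10 of 32 tested members and rose in 0 (median -0.43), but the count rested on single libraries. It was 3 without B2mKO replicate 5, 4 without WT replicate 1, and 5 without B2mKO replicate 3 or WT replicate 3. The lactate transporter gene Slc16a3 was at 369, 469, 302, 371 and 191 CPM in B2mKO tumours, against 642, 480, 623, 583 and 570 CPM in WT tumours (-0.77 ± 0.18, adjusted p = 0.0026). Hif1a, the oxygen-regulated transcription factor, was at 146 ± 9.78 CPM in B2mKO tumours and 199 ± 23.8 CPM in WT tumours (-0.45 ± 0.07, adjusted p = 9.61e-05). These genes, with the glycolytic enzyme gene Pgam1 (-0.72), kept the call without any 1 library, and Slc16a3 (-0.89) and Hif1a (-0.61) fell under aPD1.

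**Figure D4:**
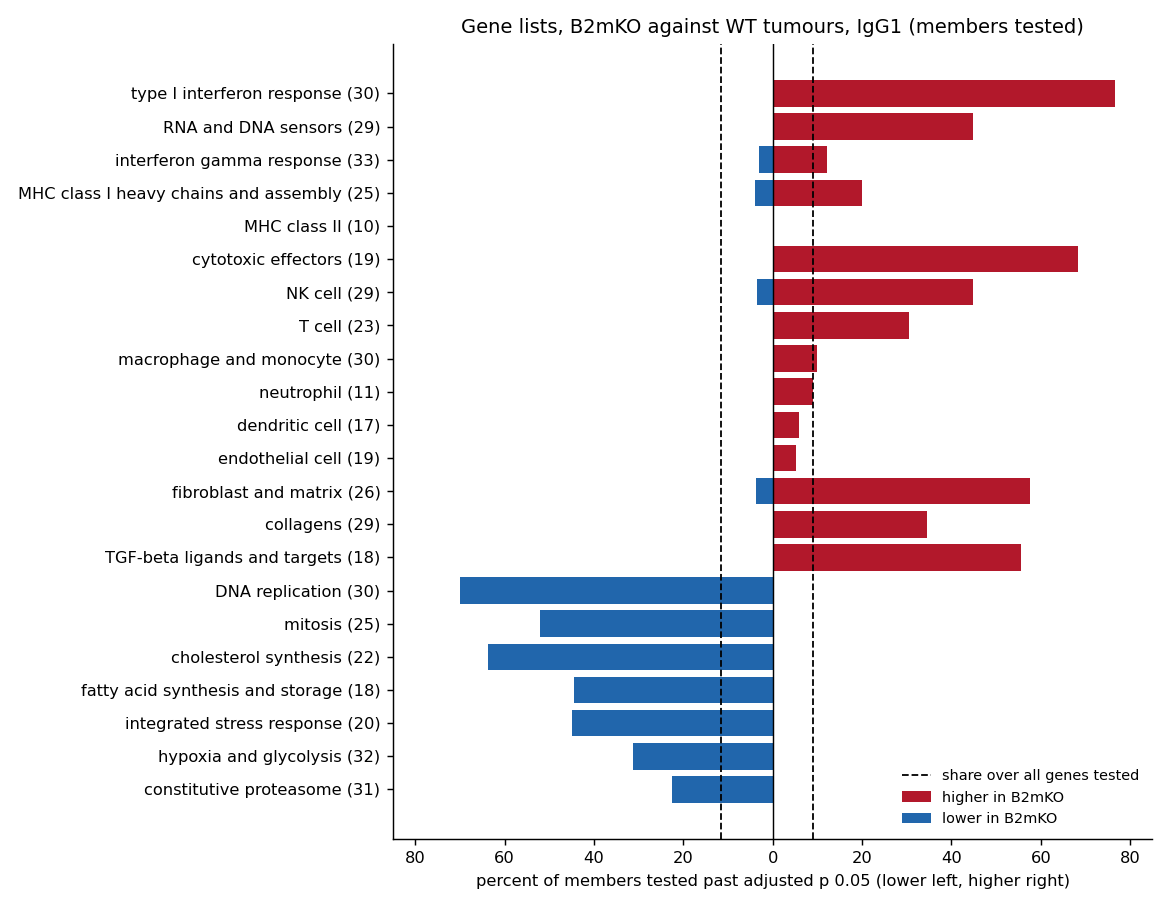
Share of tested members called higher (right) and lower (left) in B2mKO against WT tumours under IgG1 for the gene lists, in percent, with dashed lines at the shares over all 15505 genes (9.07% higher, 11.5% lower). The type I interferon and cytotoxic lists reach furthest to the right, and the DNA replication and cholesterol lists furthest to the left.

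A fit of the 10 libraries alone, which estimates the spread between libraries from fewer samples, called 1435 genes, against 3194 in the fit of all libraries. Lists whose count was over 1.5 times lower there include the type I interferon response (14 of 30), NK cells (8 of 29), TGF-beta (6 of 18), DNA replication (13 of 30), mitosis (7 of 25) and hypoxia and glycolysis (3 of 32). The same holds for MHC class I (3 of 25), the interferon gamma response (3 of 33), NK receptor ligands (0 of 9) and macrophages (0 of 30). It also holds for ADAM and ADAMTS proteases (4 of 28), surface and cytosolic peptidases (2 of 34) and interleukins and their receptors (8 of 41). Genes named so far that did not pass in that fit include Jak1 (edgeR adjusted p = 0.0519), Tap2 (0.0525), Ifi211 (0.0525), Fn1 (0.0524), Siglec1 (0.0592), Dhx58 (0.0598) and Gbp9 (0.0611). They also include Smad7 (0.067), Mx2 (0.071), Fbln2 (0.077), Ulbp1 (0.0896), Stat2 (0.0962) and Nectin2 (0.131). Their directions stayed as given above.

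The largest rises and falls among well-measured genes came from no single programme. Of the 15 largest rises without overlap, 5 were the granule genes Gzmd, Gzme, Gzmf, Gzmg and Prf1, and the others were Hpse2, Dsc2, Ptgfr, Fcrl6, Inmt, Lncenc1, Sh2d1b2, Vstm5, Pde1a and Cd55. Hpse2, a relative of heparanase (chr19:42786539-43388355), had 554 counts over the 5 B2mKO libraries and 3 over the 5 WT libraries, a CPM ratio of 174 (95% counting interval 59.2 to 845). Jak1KO tumours under IgG1 had 1408 counts of Hpse2, so a high level is shared by both mutant lines, and under aPD1 the counts were 682 in B2mKO tumours and 2 in WT tumours. Lncenc1, a long noncoding RNA of embryonic stem cells, was at 26.1, 23.7, 31.6, 27.7 and 33.3 CPM in B2mKO tumours, against 0.886, 3.71, 1.95, 1.08 and 0.879 CPM in WT tumours (4.09 ± 0.36, edgeR adjusted p = 3.34e-09). Vstm5, an immunoglobulin-domain membrane protein, was at 9.39, 9.59, 11.6, 8.98 and 13.4 CPM in B2mKO tumours, against 0.675, 1.49, 0.778, 0.980 and 0.264 CPM in WT tumours (3.67 ± 0.39, adjusted p = 1.35e-07), with Jak1KO tumours at 0.0407 CPM. Pde1a, a cyclic nucleotide phosphodiesterase, was at 23.0, 31.1, 24.2, 22.1 and 17.0 CPM in B2mKO tumours, against 3.54, 1.55, 3.22, 2.12 and 1.98 CPM in WT tumours (3.23 ± 0.23, adjusted p = 1.63e-10). These genes varied little between B2mKO libraries.

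Other large rises varied more between libraries, with the highest values in B2mKO replicates 1 and 2, as for Prf1. Dsc2, a desmosomal cadherin, was at 8.82, 19.5, 3.56, 3.38 and 1.51 CPM in B2mKO tumours, against 0.169, 0.277, 0.111, 0 and 0.132 CPM in WT tumours (5.68 ± 0.83, adjusted p = 1.78e-05). Ptgfr, the receptor for prostaglandin F2 alpha, was at 9.91, 21.5, 3.19, 5.84 and 2.03 CPM in B2mKO tumours, against 0.633, 0.221, 0.222, 0.310 and 0.132 CPM in WT tumours (4.75 ± 0.62, adjusted p = 3.67e-06). Cd55, which shields cells from complement, was at 17.6, 24.7, 6.19, 7.95 and 3.35 CPM in B2mKO tumours, against 1.6, 1.22, 1.28, 0.722 and 1.63 CPM in WT tumours (3.20 ± 0.50, adjusted p = 5.06e-05). B2mKO replicate 5 was the lowest B2mKO library for Dsc2, Ptgfr and Cd55. Fcrl6, an Fc receptor-like protein found on NK cells and cytotoxic T cells in humans, rose by 4.48 ± 0.80 (adjusted p = 0.00023), and Sh2d1b2, an adaptor of SLAM receptors in NK cells, by 3.74.

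Several genes had 0 to 3 counts over the 5 B2mKO libraries. Tmprss11g, a transmembrane serine protease (chr5:86485876-86518600), had 0 counts in all 5 B2mKO libraries and 552 in the WT libraries. Against a floor of 3 counts over the group it was 196-fold lower in B2mKO tumours, and the lower 95% counting bound was 158-fold. Under aPD1 it had 0 counts in B2mKO tumours and 519 in WT tumours, and Jak1KO tumours under IgG1 had 524. Ptprn2, a receptor-type phosphatase of secretory granules, had 0 counts in B2mKO tumours and 202 in WT tumours (71.5-fold lower against that floor, lower bound 57.7-fold). The odorant receptor gene Olfr139 had 0 counts in B2mKO tumours and 108 in WT tumours (38.3-fold lower against that floor, lower bound 30.6-fold). Jak1KO tumours had 332 counts of Ptprn2 and 779 of Olfr139. Tmprss11g, Ptprn2 and Olfr139 were thus at 0 counts under IgG1 in B2mKO tumours and not in the tumours of the other lines. The genes Epb41l4b and Atcay had 3 counts each in B2mKO tumours, against 178 and 215 in WT tumours, which gives WT to B2mKO ratios of 63.0 (95% counting interval 21.2 to 309) for Epb41l4b and 76.1 (25.7 to 372) for Atcay. Jak1KO tumours had 6 counts of Epb41l4b and 10 of Atcay, so these were low in both mutant lines. The sodium channel gene Scn8a had 3 counts in B2mKO tumours and 119 in WT tumours (ratio of WT to B2mKO 42.1, 14.1 to 207), with 142 in Jak1KO tumours.

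Chrm3, the muscarinic acetylcholine receptor M3, was at 0.229, 0.0432, 0.0938, 0.119 and 0.0944 CPM in B2mKO tumours, against 11.1, 3.60, 6.17, 6.65 and 7.08 CPM in WT tumours (-5.89 ± 0.49, edgeR adjusted p = 1.22e-09). Bnc1, a zinc finger factor of keratinocytes and germ cells, was at 0.0573, 0.0864, 0.516, 0.159 and 0.283 CPM in B2mKO tumours, against 7.00, 6.47, 3.67, 4.75 and 7.56 CPM in WT tumours (-4.70 ± 0.44, adjusted p = 1.02e-08). Sntb1, a scaffold protein of the dystrophin complex, was at 2.92, 2.33, 2.25, 3.85 and 1.94 CPM in B2mKO tumours, against 31.5, 27.8, 53.5, 32.1 and 27.3 CPM in WT tumours (-3.69 ± 0.25, adjusted p = 3.2e-11). These falls were many times the spread between libraries and returned under aPD1, at -7.64 for Chrm3, -5.96 for Bnc1 and -4.03 for Sntb1. Dio2, the deiodinase that activates thyroid hormone (-3.24 ± 0.21, adjusted p = 2.85e-11), Npr3, the clearance receptor of natriuretic peptides (-3.29), Gnai1, a G protein subunit (-3.14), and Cst6, a cystatin inhibitor of cathepsins (-2.95), were also among the 15 largest falls. Tnfrsf26, a decoy receptor of the TNF family, was at 1.71 ± 0.5 CPM in B2mKO tumours and 18.5 ± 3.19 CPM in WT tumours (-3.43 ± 0.27, adjusted p = 6.42e-10), and the neural transcription factor gene Bhlhe22 fell by 3.66 ± 0.33 (adjusted p = 5e-09). Jak1KO tumours were also low in the last pair, at 0.978 CPM for Tnfrsf26 and 0.614 CPM for Bhlhe22.

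Calls were spread unevenly over the chromosomes. Every B2mKO library lay below every WT library in its median level over the genes of chromosomes 8, 11, 12, 15 and 19, and above every WT library on chromosomes 6 and 18. On chromosome 8, 241 of 813 tested genes were lower and 24 higher (median log2 fold change -0.23). On chromosome 15, 191 of 617 were lower and 27 higher (median -0.20), and on chromosome 19, 131 of 529 were lower and 19 higher (median -0.16). Together 28.7% of the genes on chromosomes 8, 15 and 19 were called lower, against 9.04% of the genes elsewhere. These 3 are the chromosomes with the largest shares of lower calls in these same data, so the contrast follows in part from that choice. Chromosomes 11 and 12, with 15.6% called lower on each, count as elsewhere. Chromosome 6 had 129 of 813 genes higher and 28 lower (median 0.11), and chromosome 18 had 70 of 409 higher and 24 lower (median 0.13). Under aPD1, in other libraries of the same lines, the medians were -0.16 on chromosome 8, -0.25 on 15, -0.14 on 19, 0.16 on 6 and 0.12 on 18. RNA gives no copy number, and whether the lines differ in chromosome content was not tested.

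**Figure D5:**
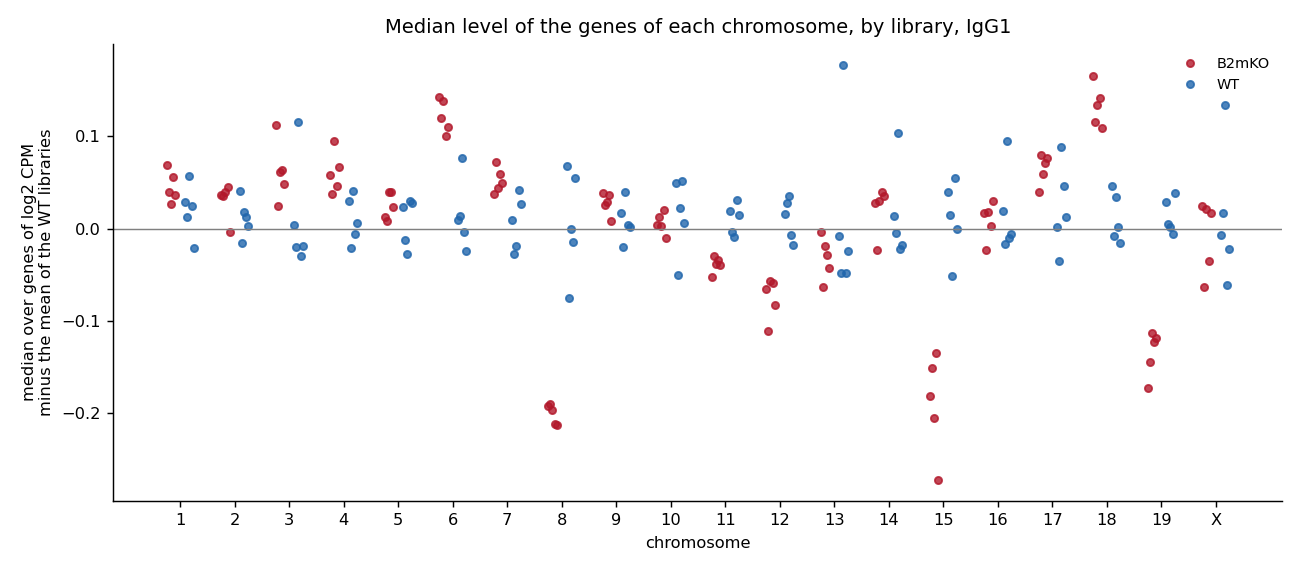
Median over the genes of each chromosome of the log2 level in each library relative to the mean of the WT IgG1 libraries, B2mKO libraries in red and WT libraries in blue. On chromosome 8 the B2mKO libraries lie between -0.21 and -0.19 and the WT libraries between -0.07 and 0.07.

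Of the 30 replication genes tested, the 6 on chromosomes 8, 15 and 19 all fell, among them Mcm5, Cdt1, Orc6 and Gins2 on chromosome 8, and of the 24 on other chromosomes, 11 and 12 included, 15 fell (median -0.43). In the cholesterol list 11 of the 18 members outside chromosomes 8, 15 and 19 fell (median -0.61), and in the integrated stress response list 6 of 15 (median -0.31). Within chromosomes, windows of 25 neighbouring genes showed where changes gathered. The highest window, chr1:79794197-85709998, had a median of 0.92 (0.61 under aPD1) with 14 genes higher and 3 lower. Among those higher were the interferon-inducible nuclear body genes Sp100 (0.98 ± 0.15, edgeR adjusted p = 4.67e-05) and Sp140 (0.92 ± 0.19, adjusted p = 0.000835), which have near copies there. The lowest, chr10:85119433-89732295, had a median of -0.63 (-0.54 under aPD1) with 17 genes lower and 0 higher, among them the RNA ligase gene Rtcb (195 ± 14.9 CPM in B2mKO tumours and 282 ± 18.7 CPM in WT tumours, -0.53 ± 0.07, adjusted p = 2.04e-06) and the DNA repair regulator gene Parpbp (-0.92 ± 0.12, adjusted p = 3.57e-06). Windows with medians of -0.60 (-0.24 under aPD1) on chr8:52196065-64733792 and of -0.46 (-0.24 under aPD1) on chr15:41447482-55906949 followed. The former holds Msmo1 and the transcription factor gene Hand2 (-1.90 ± 0.19, edgeR adjusted p = 3.27e-08), and the latter holds Sntb1. On the high side, the window chr1:172481788-177020437, which holds Ifi203, came next with a median of 0.57 (0.048 under aPD1). It was followed by chr6:120931707-124542359, which holds Usp18 and Klrg1, at 0.50 (0.15 under aPD1).

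Egr1, an immediate early transcription factor, was at 212, 191, 90.4, 134 and 67.2 CPM in B2mKO tumours, against 46.4, 27.8, 13.1, 44.1 and 25.0 CPM in WT tumours (2.15 ± 0.33, adjusted p = 4.28e-05), and its relative Egr2 rose by 1.90 ± 0.28 (adjusted p = 1.78e-05). By contrast Spry1, a feedback inhibitor of growth factor signalling, fell by 1.41 ± 0.23 (adjusted p = 9.69e-05) and Etv4, an ETS factor, by 0.89 ± 0.14 (adjusted p = 3.75e-05). Of 24 genes in that list of MAP kinase feedback and immediate early genes, 4 rose and 6 fell (41.7% called, against 20.6% of all genes). The stem cell factor gene Kitl fell to 91.8 ± 13.0 CPM in B2mKO tumours, against 164 ± 23.3 CPM in WT tumours (-0.84 ± 0.10, adjusted p = 8.71e-07). Among 44 adhesion genes 8 rose and 7 fell (34.1% called). The integrin gene Itga3 was at 3.20 ± 0.647 CPM in B2mKO tumours and 16.4 ± 3.52 CPM in WT tumours (-2.36 ± 0.21, adjusted p = 3.89e-09), and the neural adhesion gene Ncam2 at 2.22 ± 0.375 CPM in B2mKO tumours and 0.391 ± 0.159 CPM in WT tumours (2.5 ± 0.42, adjusted p = 0.000116). Trp63, the p63 factor of stratified epithelium, rose to 23.2 ± 11.0 CPM in B2mKO tumours, against 2.79 ± 1.37 CPM in WT tumours (3.06 ± 0.41, adjusted p = 4.64e-06), while Krt14, a keratin of the same epithelium, fell to 0.121 ± 0.126 CPM in B2mKO tumours, against 0.995 ± 0.723 CPM in WT tumours (-2.98 ± 0.61, adjusted p = 0.000892). The imprinted genes H19 (1.34 ± 0.22, adjusted p = 6.88e-05) and Peg10 (-2.06 ± 0.27, adjusted p = 3.7e-06) moved in opposite directions. Egr1, Egr2, Spry1, Etv4, Kitl, Itga3, Ncam2, Trp63, Krt14, H19 and Peg10 all passed in the same direction under aPD1.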

How the data were processed

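Bulk tumour RNA was made into TruSeq libraries and sequenced with paired ends, per the labels' protocols. The deposited values are raw counts per gene from featureCounts 2.0.0 on the Ensembl release 99 annotation of GRCm38, per the file headers, whose commands set no strand, paired-end or multi-mapping option. Overlapping and antisense genes therefore cannot be told apart, close copies can lose reads, and both mates of a pair may be counted. The submitters' processing notes also name the aligner STAR (2.5.2a), edgeR (3.24.3), Cufflinks (2.2.1), FastQC (0.11.2) and mm10.

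Counts of all 30 libraries were fitted together by group with edgeR 4.0.16 (R 4.3.3; filterByExpr with a minimum count of 10, TMM scaling, quasi-likelihood test, Benjamini-Hochberg adjustment over 15505 genes, threshold 0.05), so that all groups share 1 estimate of the spread. The SE is the log2 fold change divided by the root of the F statistic. Rows without a gene symbol held 0.047% of counts. Depth was 17629795 to 25944701 counts per library, and counting intervals and floors (3 counts over a group) cover counting error only. Every pair of replicates differed by more than counting noise (chi-square over its degrees of freedom at least 10.6). Of 1397 list genes 1371 matched by symbol, 3 by synonym and 18 not, 5 were other names of genes already in the list, and 1148 were tested. Members and lists were chosen with earlier results of these data known.

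Genes were named by rule: B2m and Jak1; the 15 largest rises and falls without overlap between libraries, from genes whose higher group averaged 5 CPM or more; genes with at most 3 counts in 1 group; called list members and cell type markers; up to 4 list members that missed the threshold; and the leading genes of reported windows. H2-K1, H2-D1, Gzma and Ifng fall outside this rule and were chosen after their values were seen. Alternatives were a fit of the 2 groups alone, other size factors, no filter, a replicate block, leaving out libraries, limma 3.58.1 (voom) and DESeq2 1.42.0. The header of 1 aPD1 library of WT tumours names another alignment file than its label does.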

Additional observations from a re-analysis of the deposited data

Results flagged for a closer look

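Of 126 groups checked for a library far from the others, 11 held one, where chance gives about 1 in 20. Jak1 was lowest in 1 WT library, at 182 CPM. The mean log2 CPM of the type I interferon list was 6.79 in B2mKO replicate 3, below the other B2mKO libraries. WT replicate 3 lay far from the other WT libraries in 5 lists, with a mean log2 CPM of 4.32 for collagens, 5.69 for TGF-beta ligands and targets, 2.34 for the Notch pathway and 1.59 for Hox genes, all below the others, and 6.08 for cathepsins, above them. B2mKO replicate 5 was high in skeletal muscle genes (3.13), B2mKO replicate 3 in genes of simple epithelium (0.529), and WT replicate 2 in T cell genes (0.787) and in genes of simple epithelium (-0.464).

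The genotype effect under IgG1 minus that under aPD1 passed for 5 genes called under IgG1. It was 1.74 for Il2rg (edgeR adjusted p = 0.0298; log2 fold change 0.93 under IgG1 and -0.81 under aPD1), and 0.754 for Tap2 (adjusted p = 0.0345; 0.45 and -0.30), whose IgG1 call was lost in the fit of the 2 groups alone (adjusted p = 0.0525). It was 1.91 for Heatr9 (adjusted p = 0.0345; 1.13 under IgG1 and -0.77 under aPD1). For Gbp7, an interferon-induced GTPase gene, it was 1.5 (adjusted p = 0.0298; 0.58 under IgG1 and -0.92 under aPD1), and the IgG1 call of Gbp7 was lost without B2mKO replicate 1, B2mKO replicate 2, WT replicate 1 or WT replicate 5. For Lrrtm2, a synaptic adhesion gene, it was 1.28 (adjusted p = 0.0298; 0.58 under IgG1 and -0.71 under aPD1), and its IgG1 call was lost without WT replicate 1 (adjusted p = 0.0552) and in the fit of the 2 groups alone (adjusted p = 0.0748). Across all genes 15 passed this test and 2500 had an unadjusted p under 0.05.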

How the results depend on the processing

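The number of called genes was 3194. It was 1435 (634 higher and 801 lower, 1421 of them among the 3194) in the fit of the 2 groups alone, which has fewer samples to estimate the spread from, and there Jak1 did not pass (0.38, adjusted p = 0.0519). It was 3574 with DESeq2, 3182 with limma voom, 3179 with other size factors, 2326 without the filter, and 4098 without WT IgG1 replicate 3 and B2mKO aPD1 replicate 2. Leaving out single libraries gave 2221 to 3825. Settings were also compared over the called genes that the naming rules cover, printed here or not. Of these, 139 of 366 lost the call in the 2 groups alone and 66 of 379 without the filter. With limma voom 21 of 379 lost it, with other size factors 5 of 379, with DESeq2 0 of 378, and 21 to 94 when 1 library was left out. None changed direction in any of these settings. Replicate numbers were not taken as pairs, since 1 of 5 same-number correlations was under 0.1 (range -0.185 to 0.334); 3 of 5 numbers correlated best with their own, a hint from the data and not from the design. The replicate block gave 2994 genes and lost 21 of the same 379 calls. Genes of a few counts per library, such as Ncr1 and Cd3e, carry wide errors at this depth.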

Other observations

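Of 30 tested Hox genes, which set position along the body axis, 2 rose and 6 fell in B2mKO tumours (26.7% called, against 20.6% of all genes; median log2 fold change 0.05). The 6 that fell lie in the Hoxc and Hoxd clusters. Hoxd10 averaged 2.86 ± 0.338 CPM in B2mKO tumours and 9.18 ± 2.77 CPM in WT tumours (SD, n = 5 each; -1.68 ± 0.21, edgeR adjusted p = 2.46e-06). Hoxd13 averaged 18.1 ± 1.27 CPM in B2mKO tumours and 28.2 ± 3.31 CPM in WT tumours (-0.64 ± 0.09, adjusted p = 1.84e-05), and neither gene overlapped between the groups. Hoxd8 (-0.44), Hoxd9 (-0.80), Hoxc10 (-0.39) and Hoxc11 (-0.58) fell as well, and all 6 genes passed in the same direction under aPD1.

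Among 41 tested interleukins and interleukin receptors 11 rose and 3 fell (34.1% called, against 20.6% of all genes). The list median was 0.32, and the fit of the 2 groups alone called 8 members. Under aPD1 the list had 5 members higher and 13 lower (median -0.34). Il1r1, the signalling receptor of interleukin 1, averaged 16.3 ± 6.24 CPM in B2mKO tumours and 6.99 ± 1.81 CPM in WT tumours (1.22 ± 0.26, adjusted p = 0.0012), and it rose by 1.57 under aPD1. Osmr, the receptor of oncostatin M, rose by 0.88 ± 0.18 (adjusted p = 0.00118) and by 0.83 under aPD1. Il18bp, the soluble inhibitor of interleukin 18, averaged 42.8 ± 4.23 CPM in B2mKO tumours and 17.7 ± 7.97 CPM in WT tumours (1.27 ± 0.36, adjusted p = 0.0117), and Il18rap, a chain of the interleukin 18 receptor, rose by 1.13 ± 0.31 (adjusted p = 0.0107). Under aPD1 Il18bp fell by 1.03 (adjusted p = 0.0361) and Il18rap was at 0.03 (adjusted p = 0.959).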
